A study of Drosophila melanogaster with 5 samples.

Results

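The let-7 Complex of Drosophila melanogaster is a group of 3 microRNA hairpins, mir-100, let-7 and mir-125, that are cut from one long primary transcript. Its rows were taken by name from a table of read counts, which gave 6 mature arms of 3 hairpins, among 479 arms of 259 hairpins in all. The libraries were made from small RNAs of 18 to 29 nt of dissected intestines (3 libraries) and of the carcasses left after dissection (2 libraries). All came from adult w1118 males, which have white eyes and are called wildtype in the labels, 2 to 3 days old and reared on standard food, with no treatment named. The labels do not say how many flies were pooled per library or whether libraries came from separate flies. The p-values thus rest on spread between libraries, which edgeR and limma estimate partly from all arms, and that spread may be technical.

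The complex is known as a timing switch: its transcript is turned on by the steroid hormone ecdysone around metamorphosis and stays on in adult tissues. let-7 is a founding member of the animal microRNAs, first found as a developmental timing gene in Caenorhabditis elegans. In Drosophila it acts on the transcription factors abrupt and chinmo in muscle and nervous system. miR-125 is the relative of the C. elegans timing gene lin-4 and also acts on chinmo. miR-100 belongs to the old miR-10 family. Each hairpin is cut into a duplex of a 5p and a 3p strand, of which one is usually kept in an Argonaute protein and the other, the passenger strand, is mostly broken down. Products of one transcript can accumulate to unequal amounts through their later processing and decay.

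In the BDGP6.54 annotation the primary transcript, lncRNA:let7C (FBgn0263049), runs from 18455717 to 18473132 on the plus strand of chromosome 2L and has 3 exons. All 3 hairpins lie close together in exon 2, near the 3′ end of the transcript. The mir-100 hairpin (FBgn0262463) occupies 18471434 to 18471533, let-7 (FBgn0262406) 18472034 to 18472111 and mir-125 (FBgn0262456) 18472315 to 18472424. There are 500 bases between mir-100 and let-7 and 203 between let-7 and mir-125. No other annotated gene overlaps a hairpin; a protein-coding gene on the opposite strand, CG10283, overlaps only the last exon of the transcript. The annotated arms are 21 or 22 nt long, so read counts of the arms need no length correction. The capture of different small RNAs by linker ligation was not tested, so ratios between microRNAs are not molar amounts. Comparing such ratios between libraries takes capture to be alike in all libraries.

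The intestine libraries held 329424 to 547937 microRNA reads and the carcass libraries 1654625 to 3038873; these are microRNA reads only and not all reads of a library. Marker microRNAs followed the tissue labels. The marker lists were chosen with earlier results of these data known, so this is no independent check of the labels. The intestine markers miR-958, miR-375 and miR-263a together took 253936 to 269158 CPM (read counts divided by the library's microRNA total and put on a common scale) in intestine libraries and 20768 to 24415 in the carcass, with 6 of 6 arms called higher. miR-1 and miR-133, known from muscle, took 27823 to 41637 CPM in intestine libraries and 143062 to 153071 in the carcass. Markers of neurons and the eye took 206 to 273 CPM in intestine libraries and 20324 to 29828 in the carcass. Those of the testis took 45.5 to 54.8 CPM in intestine libraries and 3554 to 3705 in the carcass. All 4 tested muscle arms, all 5 tested neuron and eye arms and all 34 tested testis arms were called lower. The low-count filter passes an arm that is high in the carcass libraries alone. For such arms of the neuron, eye and testis lists, a call of lower was close to fixed in advance. Of all 222 tested arms, 48.2% were called lower and 34.7% higher. Of the neuron and eye markers 3 of 8 arms had no intestine read, and of the testis markers 15 of 42. The neuron, eye and testis signal of the carcass was thus nearly absent from the intestine libraries, whereas the muscle signal was not; the part of these cell types in the let-7 Complex reads was not tested. In whole tissues, fewer cells of a type and less RNA per cell cannot be told apart.

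The 3 mature microRNAs of the complex, all of them 5p arms, showed no tissue difference between young adult intestine and carcass that held under all 5 scalings tried. let-7-5p and miR-125-5p each took between 0.767 and 1.53% of the microRNA reads of a library, and miR-100-5p between 0.174 and 0.223%. The less abundant 3p arm of let-7 had the largest fold change of the 6 arms and was called higher in the intestine under all 5 scalings, with a log2 fold change of 1.35 when libraries were scaled by trimmed mean of M-values (TMM).

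let-7-5p made up 0.767, 1.21 and 1.003% of the microRNA reads in the 3 intestine libraries, from 4200, 4461 and 3304 reads, and 1.53 and 1.27% in the 2 carcass libraries, from 25268 and 38671 reads. On this scale every intestine library lay below both carcass libraries, by a narrow margin. It ranked 25th, 18th and 19th among all arms in intestine libraries and 11th and 14th in the carcass. TMM scales libraries on the premise that most arms do not differ. Here 82.9% of the 222 tested arms were called after TMM, with a median log2 fold change of -0.50, so that premise was not met. With TMM let-7-5p averaged 11481 ± 2478 CPM in intestine libraries (SD, n = 3) and 11233 ± 1040 CPM in carcass libraries (SD, n = 2), and the tissues overlapped. Its log2 fold difference, intestine over carcass, was 0.03 (SE 0.22, edgeR quasi-likelihood adjusted p = 0.895). With library totals in place of TMM it was called lower in the intestine, at -0.49 (edgeR adjusted p = 0.0214).

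miR-125-5p made up 0.767, 0.910 and 1.02% of the microRNA reads in the intestine, from 4201, 3352 and 3355 reads, and 0.934 and 1.21% in the carcass, from 15461 and 36619 reads. Here the tissues overlapped, with one carcass library inside the range of the intestine. On the TMM scale miR-125-5p averaged 10407 ± 1654 CPM in intestine libraries and 8632 ± 1851 CPM in carcass libraries, a log2 fold change of 0.27 (SE 0.22, edgeR adjusted p = 0.253). Its sign turned with library totals, at -0.25.

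miR-100-5p, the least abundant mature arm of the cluster, made up 0.174, 0.201 and 0.203% in the intestine, from 953, 740 and 668 reads, and 0.194 and 0.223% in the carcass, from 3211 and 6780 reads. The tissues overlapped on library totals but not on the TMM scale, where all 3 intestine libraries lay above both carcass libraries. It averaged 2228 ± 210 CPM in intestine libraries and 1681 ± 226 CPM in carcass libraries, a log2 fold change of 0.41 (SE 0.24, edgeR adjusted p = 0.111), which was not called. With library totals the value was -0.12.

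Summed over all 6 arms, the complex held 1.73, 2.35 and 2.25% of the microRNA reads in intestine libraries and 2.67 and 2.72% in the carcass. The intestine mean was 2.11 ± 0.33% (SD, n = 3) and the carcass mean 2.70 ± 0.03% (SD, n = 2). Every intestine library lay below the carcass libraries. A two-sided exact permutation test over libraries gave p = 0.2, where 0.1 is the smallest value that 3 against 2 libraries allow. As a log2 ratio of the means the difference was -0.35 on library totals, but 0.17 on TMM-scaled counts and -0.045 when the most abundant arm of the table, miR-958-3p, was left out of the totals. The sign of so small a difference thus depended on the scaling.

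**Figure D1:**
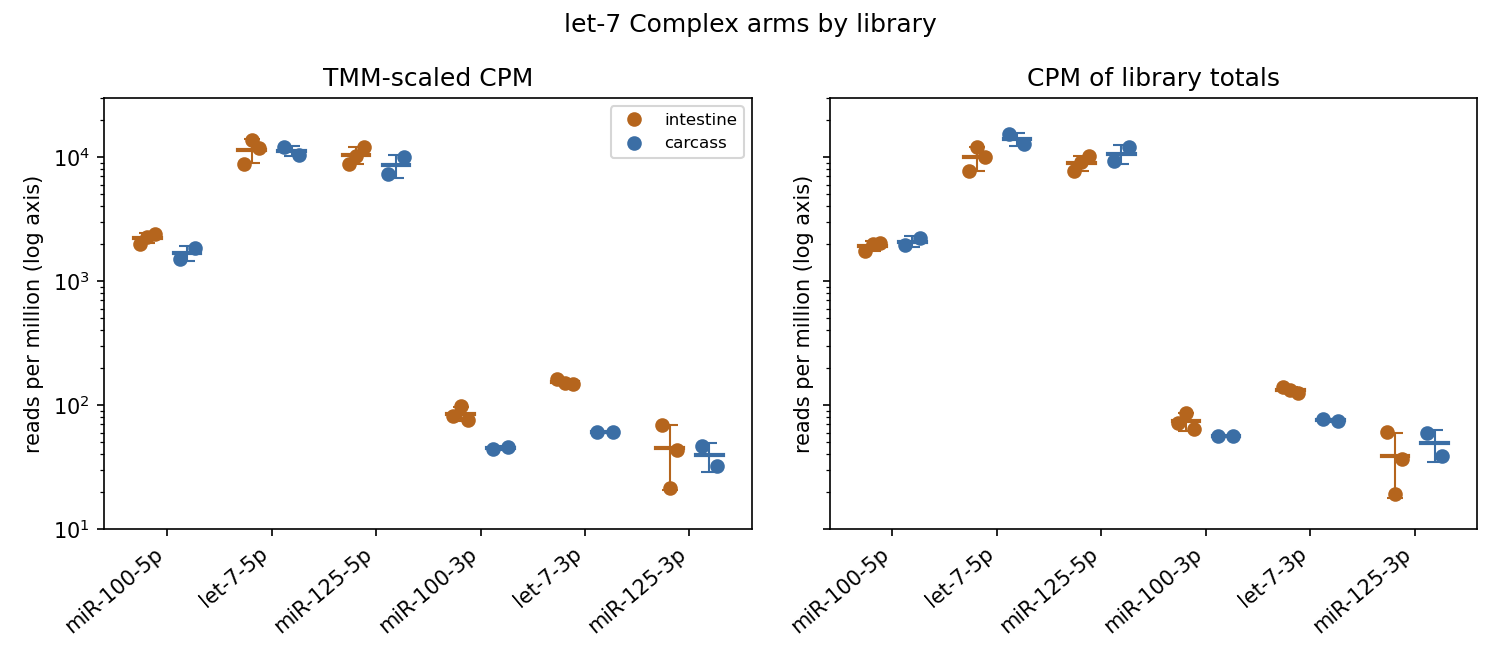
CPM on a log axis for each let-7 Complex arm, scaled by TMM (left) and by library totals (right), with 1 point per library, a line at the mean and bars of 1 SD (3 intestine and 2 carcass libraries). The 5p arms of both tissues lie close together, while let-7-3p is higher in all 3 intestine libraries than in both carcass libraries on both scales.

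Of the 6 arms, all of which passed the low-count filter, 2 were called higher in intestine libraries and 0 lower (edgeR quasi-likelihood test, adjusted p threshold 0.05), and 4 were not called. Without intestine replicate 1 or 2 the count called higher was 1, let-7-3p. Of all 222 arms tested, 82.9% were called, 34.7% higher and 48.2% lower, and 17.1% were not. The share called higher among the members is near that of all arms. All 6 fold changes were above 0 with TMM, so none was lower at any threshold in that fit. RLE factors and DESeq2 each called 1 arm higher and 0 lower, and library totals called 1 higher, let-7-3p, and 1 lower, let-7-5p. Tissues did not overlap on the TMM scale for 3 of the 6 members, each with the intestine above the carcass, against 87.8% of all tested arms, 38.3% with the intestine above. The median log2 fold change of the 6 arms was 0.34, beside -0.50 for all tested arms. The scaling moved that median of all arms to -1.02 with library totals. The tested arms include 34 of the testis and 5 of neurons and the eye, all called lower. Arms high in the carcass alone can pass the filter, and a call of lower is then close to fixed in advance. Whether the median marks unchanged arms was not tested.

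let-7-3p had 77, 49 and 41 reads in intestine libraries and 127 and 224 in the carcass, from much deeper carcass libraries. On the TMM scale this was 162, 151 and 148 CPM in intestine libraries against 60.2 and 60.8 CPM in the carcass. Libraries of one tissue lay close together and the tissues were far apart. This is a log2 fold change of 1.35 (SE 0.25, edgeR adjusted p = 1.08e-05), with each of the 3 intestine libraries above both carcass libraries. It was called in all 15 alternative fits, with values from 0.82 to 1.37.

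miR-100-3p had 39, 32 and 21 reads in intestine libraries and 93 and 170 in the carcass, or 81.8, 98.3 and 75.8 TMM-scaled CPM in intestine libraries and 44.0 and 46.1 in the carcass. The tissues did not overlap, and the intestine was higher by 0.92 on the log2 scale (SE 0.28, edgeR adjusted p = 0.00356). The call was lost with library totals (0.40, edgeR adjusted p = 0.218) and with RLE factors (0.56, edgeR adjusted p = 0.0774), so it depended on the scaling. It was also lost without intestine replicate 1 (0.72, edgeR adjusted p = 0.0704) or replicate 2 (0.67, edgeR adjusted p = 0.0912).

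miR-125-3p had the fewest reads summed over the 5 libraries, with 33, 7 and 12 reads in intestine libraries and 98 and 118 in the carcass. Its TMM-scaled values of 69.2, 21.5 and 43.3 CPM in the intestine spanned the carcass values of 46.4 and 32.0 CPM. The log2 fold change of 0.27 (SE 0.37, edgeR adjusted p = 0.487) was not called.

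**Figure D2:**
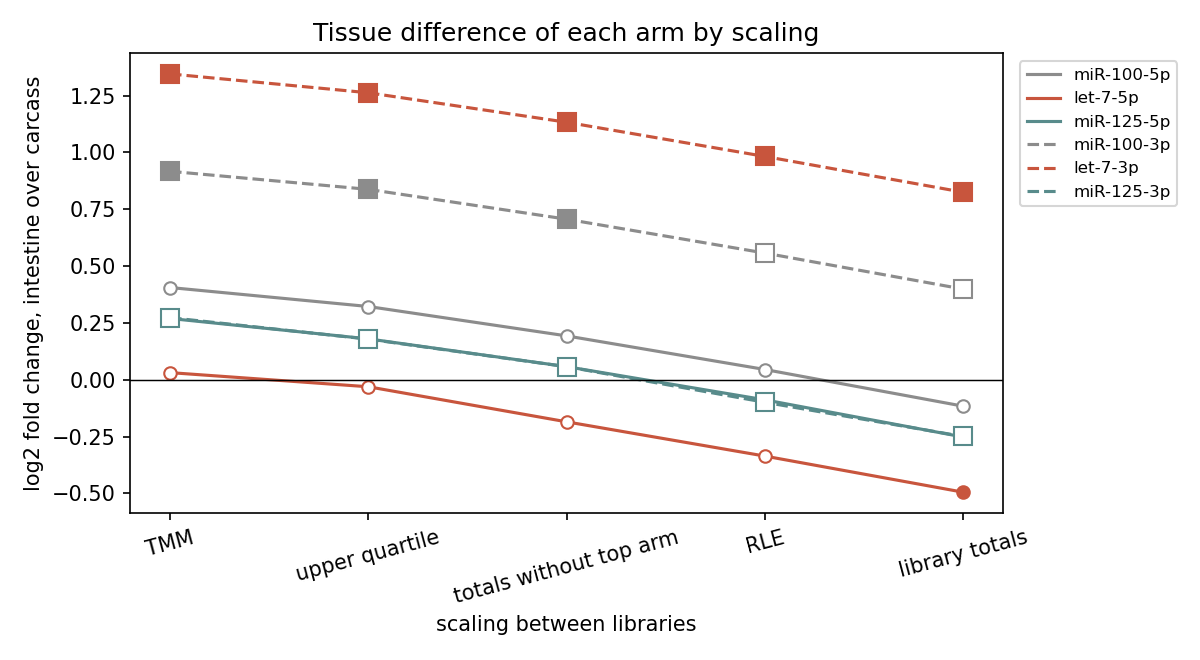
Log2 fold change, intestine over carcass, of each arm under 5 scalings between libraries; filled symbols passed the edgeR test at 0.05 after adjustment, circles are 5p and squares 3p arms. Only let-7-3p is filled under all 5 scalings, the lines of miR-125-5p and miR-125-3p nearly coincide, and let-7-5p is below 0 under every scaling but TMM.

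Shares within a library are free of any scaling between libraries. Among the reads of the 3 mature arms, let-7-5p took 44.9, 52.2 and 45.1% in intestine libraries and 57.5 and 47.1% in the carcass. miR-125-5p took 44.9, 39.2 and 45.8% in intestine libraries and 35.2 and 44.6% in the carcass. The remainder was miR-100-5p, at 10.2, 8.65 and 9.12% in intestine libraries and 7.31 and 8.26% in the carcass. In both tissues, then, let-7-5p and miR-125-5p had shares of like size and miR-100-5p a several-fold smaller one. let-7-5p led miR-125-5p in intestine 2, carcass 1 and carcass 2, and miR-125-5p was level with it or slightly ahead in intestine 1 and intestine 3.

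For let-7-5p and miR-125-5p the composition differed more between libraries of one tissue than between the tissue means. The let-7-5p share of the 2 carcass libraries differed by 10.4 percentage points, with 95% Wilson intervals of 57.0 to 58.0% and 46.8 to 47.5% that are far apart. In the intestine it ranged over 7.26 points. The mean difference, intestine minus carcass, was -4.93 points, from 47.4 ± 4.14% in intestine libraries (SD, n = 3) and 52.3 ± 7.34% in carcass libraries (SD, n = 2), with an exact permutation p of 0.5. It rested on the carcass libraries: the difference was 0.26 points without carcass replicate 1 and -10.1 points without carcass replicate 2. The miR-125-5p share averaged 43.3 ± 3.58% in intestine libraries and 39.9 ± 6.67% in carcass libraries, also with an exact permutation p of 0.5. Its difference was -1.32 points without carcass replicate 1 and 8.11 points without carcass replicate 2. Without molecular identifiers such intervals describe counting error alone, which was small beside the spread between libraries.

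The miR-100-5p share ranged over 1.54 points among intestine libraries and 0.95 among carcass libraries, with a mean difference of 1.53 points. The share in each intestine library was above that in each carcass library. Its mean share was 9.32 ± 0.79% in intestine libraries and 7.78 ± 0.67% in the carcass (exact permutation p = 0.2, two-sided, smallest possible 0.1).

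**Figure D3:**
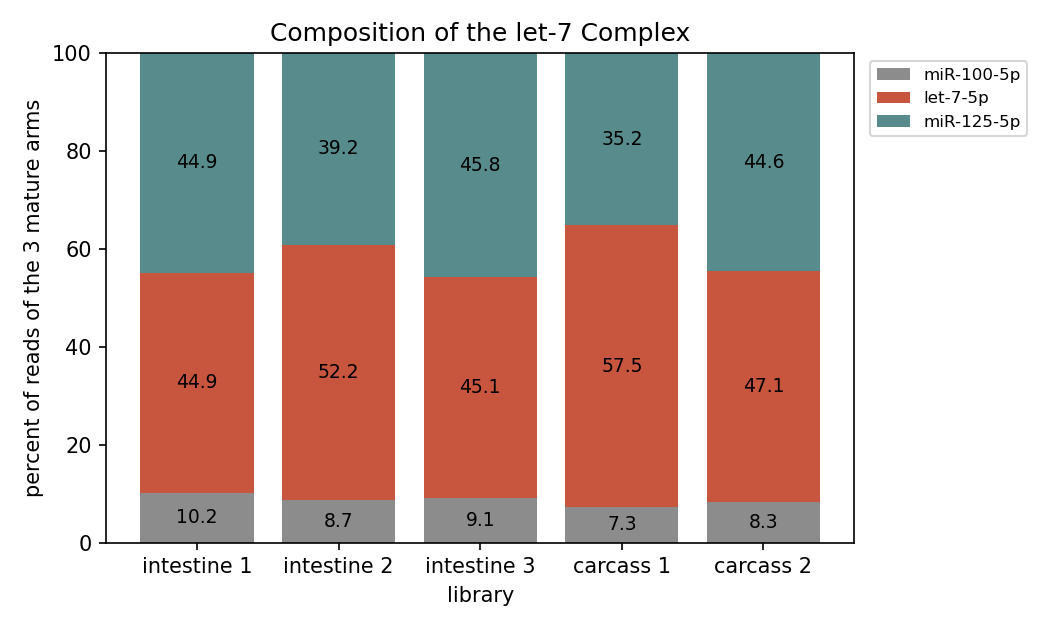
Percent of the reads of the 3 mature arms taken by miR-100-5p, let-7-5p and miR-125-5p in each of the 3 intestine and 2 carcass libraries, with the percent printed in each bar. Intestine 1 has the lowest let-7-5p share, 44.9%, and carcass 1 the highest, 57.5%, and the tissues overlap in the let-7-5p and miR-125-5p shares but not in that of miR-100-5p.

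The ratios between members were tested with limma on the log2 ratio of every tested arm to one member, in which no scaling enters. There were 4.41, 6.03 and 4.95 reads of let-7-5p for each read of miR-100-5p in intestine libraries and 7.87 and 5.70 in the carcass. The second intestine library lay within the carcass range. The log2 difference, intestine minus carcass, was -0.40 (95% interval -0.85 to 0.05, limma adjusted p = 0.0964 over 221 arms, of which 76.9% were called). It was called without carcass replicate 2, at -0.63 (limma adjusted p = 0.026), a fit that lends the spread of the intestine libraries to the single carcass library.

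The miR-125-5p to miR-100-5p ratio was the steadiest of the 3. It was 4.41, 4.53 and 5.02 in intestine libraries and 4.82 and 5.40 in the carcass. The log2 difference was -0.13 (95% interval -0.53 to 0.26, limma adjusted p = 0.509), which as a fold is 0.911 with an interval of 0.693 to 1.20. The SD of the log2 ratio was 0.10 in intestine libraries and 0.12 in the carcass, whereas for let-7-5p over miR-100-5p it was 0.23 in intestine libraries and 0.33 in the carcass.

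The miR-125-5p to let-7-5p ratio was 1.0002, 0.751 and 1.02 in intestine libraries and 0.612 and 0.947 in the carcass. Here both tissues held a library near equal reads and a library well below it. The log2 difference was 0.26 (95% interval -0.44 to 0.96, limma adjusted p = 0.483, with 72.9% of arms called in that fit). Without carcass replicate 1 it was -0.051, and without carcass replicate 2 it was 0.58. The ratios with let-7-5p thus varied more between libraries of one tissue than the miR-125-5p to miR-100-5p ratio did. Which arm's own amount varied was not tested.

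The 3p arms were passenger strands by read number in every hairpin and library, and the ratio of arms is again free of scaling. let-7-3p made up 1.80, 1.09 and 1.23% of the reads of its hairpin in intestine libraries and 0.5001 and 0.576% in the carcass. The 95% Wilson intervals of the intestine libraries, the lowest of which began at 0.823%, all lay above those of the carcass libraries, which ended at 0.656%. Put as a ratio, there were 54.5, 91.0 and 80.6 reads of let-7-5p for each read of let-7-3p in intestine libraries and 199 and 173 in the carcass.

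In an edgeR fit of arm by tissue over 129 hairpins, the let-7 ratio of 3p to 5p reads was higher in the intestine by a log2 difference of 1.35, or 2.54-fold (SE 0.28, edgeR adjusted p = 0.0234). In that fit 10.9% of hairpins were called, 8.53% with the minor arm relatively higher in the intestine. By p-value let-7 ranked 6 of the 129. The fit held 6 hairpins with no intestine read of either arm, for which the ratio has no intestine value. Over the other 123 hairpins the median log2 difference was 0.33 and 66.7% were above 0. Among these let-7 ranked 29 counting down from the highest intestine value, and 46 by size in either direction. A fit without the 6 hairpins, chosen after seeing the data, gave the same log2 difference for let-7 of 1.35 (edgeR adjusted p = 0.000152). The share of hairpins called in that fit was not counted, and the 10.9% belongs to the fit of 129. With the 6 hairpins kept, the let-7 call was lost without intestine replicate 1 (1.11, edgeR adjusted p = 0.0967) and without intestine replicate 3 (1.41, edgeR adjusted p = 0.0807). The direction was kept in every fit run.

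miR-100-3p made up more of its hairpin than either other passenger strand, at 3.93, 4.15 and 3.05% in intestine libraries and 2.81 and 2.45% in the carcass. All 3 intestine values were above both carcass values, but the intervals overlapped. The log2 difference was 0.52 (SE 0.28, edgeR adjusted p = 0.363) and was not called, beside the median of 0.33 over the 123 hairpins.

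miR-125-3p made up 0.779, 0.208 and 0.356% of its hairpin in intestine libraries and 0.630 and 0.321% in the carcass. Libraries of one tissue differed more than the tissues did, and the log2 difference was 0.02 (SE 0.52, edgeR adjusted p = 1). The 3 hairpins of one transcript thus had unequal tissue differences in arm ratio as measured, with that of let-7 called; whether let-7 differs from the other two was not tested.

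**Figure D4:**
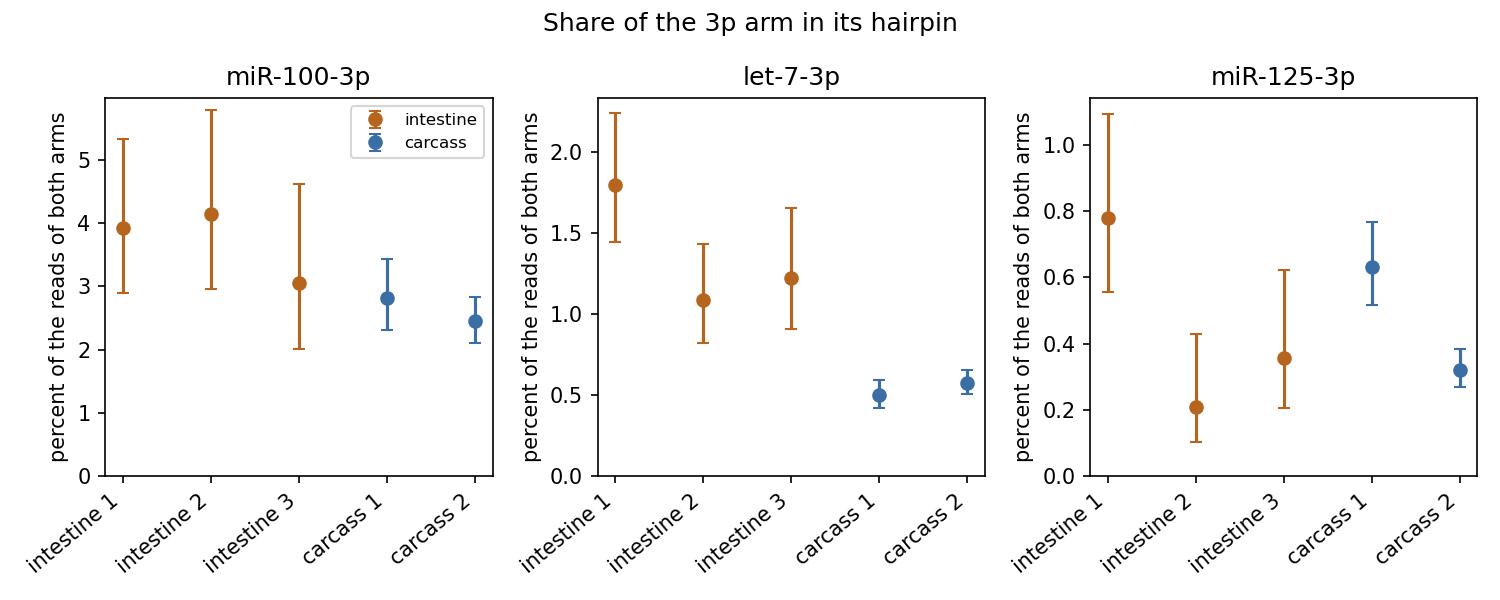
Share of the 3p arm among the reads of both arms of its hairpin, in percent, in each of the 3 intestine and 2 carcass libraries, with bars for the 95% Wilson interval, which covers counting error only. For let-7-3p the intestine libraries, at 1.09 to 1.80%, lie above the carcass libraries, at 0.5001 and 0.576%, with intervals that do not overlap.

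**Figure D5:**
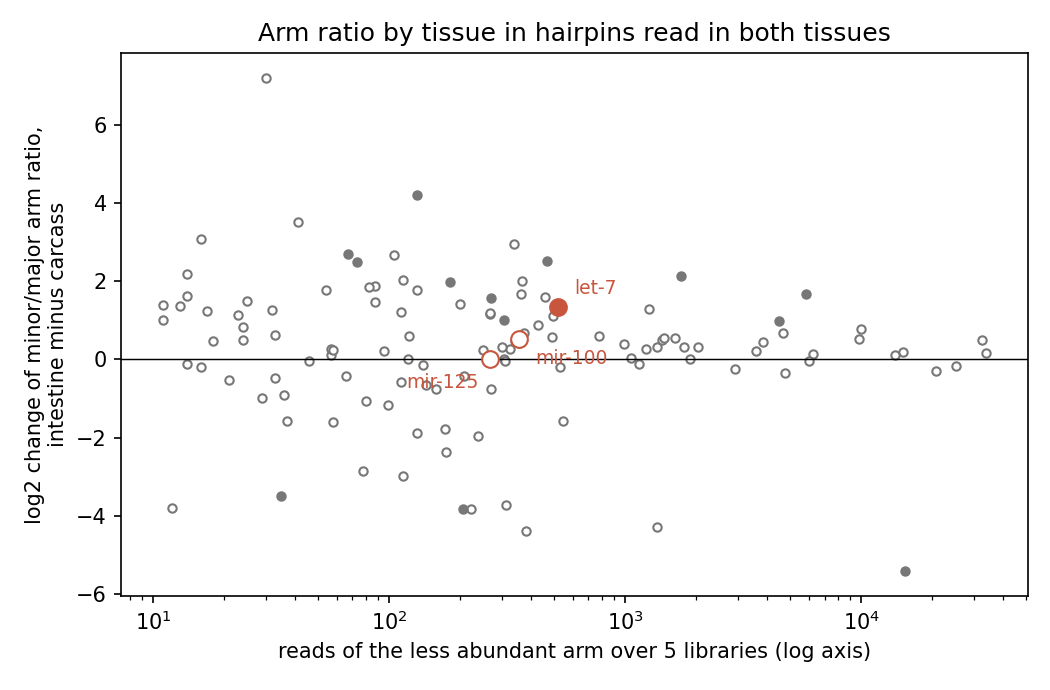
Log2 difference of the minor to major arm ratio, intestine minus carcass, against the reads of the minor arm over 5 libraries (log axis). Points are the 123 hairpins read in both tissues. Filled points are past an adjusted p of 0.05 in the edgeR fit of all 129 hairpins. let-7, at 1.35, is filled, while mir-100, at 0.52, and mir-125, at 0.02, are open.

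Other microRNA clusters show how far members of one cluster can lie apart in these tissues. Between the mature arms of the let-7 Complex the log2 fold changes spanned 0.37, from let-7-5p to miR-100-5p. The mir-275 and mir-305 cluster spanned 0.15 and the mir-279 and mir-996 pair 0.62. Members lay much further apart in the cluster of mir-283, mir-304 and mir-12, which spanned 3.41, and in that of mir-34, mir-277 and mir-317, which spanned 2.27. These spans are descriptions and were not tested against each other.

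Over the 5 libraries, the arm nearest to miR-100-5p by Euclidean distance of centred log2 CPM was miR-184-3p (distance 0.17), followed by miR-125-5p (0.23) and miR-92b-3p (0.26), against a median of 2.33 over 220 arms. For miR-125-5p the nearest arm was miR-100-5p itself, then miR-184-3p (0.24) and miR-34-5p (0.28). The nearest arms to let-7-5p were miR-1003-3p (0.30), miR-304-5p (0.35) and miR-79-3p (0.39), against a median of 2.66. Of the 220 arms, miR-125-5p was in place 12 and miR-100-5p in place 13, so both were still among the nearer ones. In turn let-7-5p was in place 22 from miR-100-5p and in place 14 from miR-125-5p. Arms with a like tissue difference lie close by this measure, so these places do not show that arms share a cluster.

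Other microRNAs known from ecdysone signalling in Drosophila were called in either direction about as often as arms in general. Of 10 arms of 5 hairpins, 4 were called higher and 4 lower, beside 34.7% of all arms called higher and 48.2% called lower; with library totals 2 were called higher and 5 lower, beside 22.5% of all arms called higher and 56.8% called lower on that scale. Both arms of miR-14, which acts on the ecdysone receptor, were higher, with a log2 fold change of 0.86 for miR-14-3p, and so were those of bantam, a growth microRNA (bantam-3p 0.67). miR-14-3p was not called with library totals (0.33, edgeR adjusted p = 0.0821). bantam-3p was not called with library totals (0.15, edgeR adjusted p = 0.478), RLE factors (0.32, edgeR adjusted p = 0.118) or upper-quartile factors (0.58, edgeR adjusted p = 0.0531). Both 5p arms were called under all 5 scalings. Both arms of miR-252 were lower (miR-252-5p -3.78), and so were those of miR-8 (miR-8-3p -1.12), under all 5 scalings. miR-34-5p, which ecdysone lowers as it raises the let-7 Complex, had a log2 fold change of 0.08 (edgeR adjusted p = 0.689). With library totals it was called lower, at -0.44 (edgeR adjusted p = 0.0179). miR-10, the relative of miR-100, lay far from it: miR-10-5p averaged 23029 ± 4976 TMM-scaled CPM in intestine libraries and 3278 ± 724 in carcass libraries, a log2 fold change of 2.81 (SE 0.25, edgeR adjusted p = 1.29e-12).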

How the data were processed

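Per the labels' protocols, Trizol total RNA was size-selected on gels, joined to linkers at either end and sequenced on a NextSeq instrument. Reads were handled with cutadapt (1.9.1), Bowtie2 (2.3.2) and the featureCounts program of Subread (2.0.0), per the submitters' processing notes. For the build, strand setting and multiply matching reads, nothing is stated in the labels used here. The authors deposited raw read counts per mature arm.

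Groups and replicate numbers came from the sample titles. In the BDGP6.54 annotation (release 115) 473 rows were found by name and 6 by synonym, among them let-7. That build was not compared with the authors'. Arms were named from their place in the hairpin.

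Tissues were compared with edgeR 4.0.16 in R 4.3.3 (quasi-likelihood test, TMM factors of 0.84 to 0.88 in the intestine and 1.21 to 1.28 in the carcass). filterByExpr (minimum count 10, minimum total 15) left 222 arms. Adjustment was by Benjamini-Hochberg over all arms or hairpins fitted, with a threshold of 0.05, and standard errors were derived from the log2 fold change and F. Ratios to a member were fitted with limma 3.58.1 on log2 values with 0.5 reads added. Arm ratios were fitted with each library as a term for hairpins with at least 10 reads of the minor arm. Likeness used log2 CPM with a prior count of 2. Alternatives were 4 other scalings, DESeq2 1.42.0, limma-voom, 2 other filters, a robust fit, a replicate block, other pseudocounts, summed arms and leaving out each library. The fits were also run on simulated counts, with rises and falls drawn at equal odds. In the data more arms were called lower than higher, so these runs do not test the choice of scaling.

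The members and lists were chosen with earlier results of these data known. The text names all members, a list of hormone-linked microRNAs, miR-10, the 3 arms nearest to each mature member and 4 other clusters; no seed comparison was made. A count of 3 reads corresponds to 5.48 to 9.11 CPM in the intestine and 0.987 to 1.81 CPM in the carcass, so passenger strands were measured more closely in the carcass.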

Additional observations from a re-analysis of the deposited data

How the results depend on the processing

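let-7-3p kept its call in 15 of 15 alternatives. The call of miR-100-3p was lost with RLE factors (0.56), library totals (0.40), DESeq2 (0.56) and no filter (0.51), which left 1 arm called higher in each; library totals also gave 1 arm called lower, let-7-5p. On the log2 scale let-7-5p, 0.03 with TMM, was -0.34 with RLE factors and with DESeq2, -0.031 with upper-quartile factors, -0.49 with library totals, -0.19 with totals without the most abundant arm, -0.37 with no filter, -0.23 with a mean of at least 10 CPM and -0.029 with the replicate block. miR-125-5p was -0.089 with RLE factors and with DESeq2, -0.25 with library totals and -0.14 with no filter. miR-125-3p was -0.10, -0.15, -0.25 and -0.13 under RLE factors, DESeq2, library totals and no filter. miR-100-5p was -0.12 with library totals and -0.0042 with no filter. The cause was not tested.

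Replicate numbers come from the titles and nothing says that they pair samples: deviations of same-numbered libraries correlated with r = 0.03 and 0.02 over 222 arms, across arms and not samples. With the replicate number as a block the let-7 arm ratio was 1.40 (limma adjusted p = 0.114, not called, against 0.0265 in limma without it), and that of mir-125 was -0.10; without the block limma gave -0.16 for mir-125. The block changed no other call. A fit limited to hairpins read in both tissues, chosen after seeing the data, left the call of each of the 3 arm ratios as it was. The summed level, -0.35, became 0.17 on TMM-scaled CPM and -0.045 without the most abundant arm. Leaving out 1 library it ran from -0.44 to -0.23.

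Leaving out 1 library at a time, the log2 fold change ran from 0.10 to 0.53 for miR-100-5p, 0.67 to 0.94 for miR-100-3p, -0.30 to 0.14 for let-7-5p, 1.06 to 1.35 for let-7-3p, -0.091 to 0.49 for miR-125-5p and -0.54 to 0.56 for miR-125-3p, with 1 to 2 arms called higher and 0 lower. The let-7-5p to miR-100-5p ratio ran from -0.63 to -0.17, miR-125-5p to let-7-5p from -0.051 to 0.58, and the arm ratio from 1.11 to 1.502 for let-7 and -0.66 to 0.50 for mir-125. The lowest count of a member was 7 reads, of miR-125-3p in one intestine library.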
